A study of Mus musculus with 4 samples.

Results

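Calcium release, entry and pump genes of the mouse oocyte were followed in 4 RNA-seq libraries, made from controls and from Parp12 knockdown oocytes (2 libraries each). The set holds 9 of the 55453 genes of the deposited count table, chosen by gene symbol as genes used at maturation and fertilization: Itpr1, Itpr2, Atp2a2, Atp2b1, Stim1, Orai1, Trpm7, Trpv3 and Cacna1h. All 9 had counts in every library and passed the filter on low counts, which left 15868 genes to test. The oocytes of both groups came from the ovary and were at the germinal vesicle stage, the prophase arrest that precedes maturation. The controls are labelled wild type and the others as Parp12 knockdown, Parp12 being a member of the PARP family of ADP-ribose transferases. The sources used here do not give the method of knockdown, the strain and age of the mice, or the number of oocytes pooled. The comparison asks whether messenger RNA of the calcium machinery differs when Parp12 is reduced.

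At fertilization the egg answers the sperm with repeated rises of cytosolic calcium. Sperm phospholipase C zeta makes inositol trisphosphate (IP3), IP3 receptors release calcium from the endoplasmic reticulum, pumps return it to the store or expel it, and channels in the plasma membrane let calcium in to replace what was lost. The oocyte builds up this machinery, in part as stored messenger RNA, before and during maturation.

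Libraries held between 35805122 and 45230773 counts. Levels are given in CPM (counts per 1000000), and with a limit of 3 counts a gene at 0 could have had up to 0.0663 to 0.0838 CPM. Parp12 had 14279 and 9419 counts in controls and 32 and 86 in knockdowns, as the labels say (log2 fold change -7.51, adjusted p 1.27e-07 by edgeR and 0.280 by limma-voom). All 13 oocyte markers had counts, with sums per library from 25691 to 27687 CPM. Of 16 granulosa and cumulus markers 8 had no count in any library, among them Amh, Foxl2 and Inhba. Their sum was 165.9 and 155.5 CPM in control libraries, and 134.6 and 153.9 CPM in knockdown libraries, most of it from Nr5a2 (105.0 CPM on average). Theca and stroma markers summed to between 2.58 and 6.45 CPM. The 4 blood markers summed to 0.486 and 1.10 CPM in the controls, and to 3.05 and 2.40 CPM in the knockdowns. What part these low levels have in the values below was not tested. In pooled oocytes, fewer cells of a type and less RNA per cell cannot be told apart.

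The libraries were made from RNA caught by its poly(A) tail, so the annotated 3′ ends of the genes are shown first. Cleavage and tailing use the hexamer AATAAA or its variant ATTAAA, and cytoplasmic polyadenylation elements such as TTTTAT or TTTTAAT are known to mark stored messages whose tails are lengthened during maturation. In the last 100 bases of the longest complete coding transcript (GENCODE M21, consensus coding set), read on the transcript's own strand, all 9 genes held a hexamer, against 81.1% of the 12799 tested genes with such a transcript. The TTTTAT element was found in 2 of the 9, Atp2a2 and Atp2b1, and TTTTAAT in 0. Of all 12799 genes 19.0% held either element. The 30-base sites below show the hexamer of the IP3 receptors and Trpm7 and the TTTTAT element of both pumps, in capitals, 5′ to 3′, on mm10 (GRCm38). They lie at chr6:108551078-108551107 (plus strand) for Itpr1, chr6:146108314-146108343 (minus) for Itpr2, chr2:126791575-126791604 (minus) for Trpm7, chr5:122456410-122456439 (minus) for Atp2a2 and chr10:99026057-99026086 (plus) for Atp2b1.
Itpr1 hexamer: ctaaaaatatttAATAAAcgatgcagaatc
Itpr2 hexamer: taagttaatattAATAAAatgaatttgtgt
Trpm7 hexamer, present in 2 copies: ATTAAAtctttaaaagaaATTAAAtttatt
Atp2a2 element: gtctaatgtaTTTTATtgtaacagacattg
Atp2b1 element: agccactgagccTTTTATtatttgtctatt
The element began 90 bases from the end of the transcript used in Atp2a2 and 75 bases in Atp2b1, which puts it 72 and 46 bases before the last hexamer. The Atp2a2 gene is annotated further, to chr5:122453513, so that transcript does not end at the distal end of the gene. All sites shown are matches to letters in annotated ends, and the ends used in these oocytes were not measured.

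No difference between knockdown and control oocytes passed the test for any of the 9 genes. By edgeR's quasi-likelihood test with Benjamini-Hochberg adjustment over all tested genes, 0 of 9 passed 0.05, where the share of all tested genes was 0.0063% (1 gene, Parp12). At an unadjusted p under 0.05 the count was also 0 of 9, against 5.51% of all tested genes. DESeq2 and limma-voom each called 0 of 9, where they called 1.86% and 0.0% of all genes. As limma-voom did not call even Parp12, its 0 of 9 carries no information on these genes. The log2 fold changes (knockdown over control) ran from -0.27 for Trpv3 to 0.39 for Stim1, with 4 above 0 and 5 below and a median of -0.016, beside 0.0033 over all tested genes. For 7 of the 9 the 95% interval excluded a 1.5-fold change in either direction. Stim1 and Trpv3, the genes of lowest level, had wider intervals, which for Stim1 included a 2-fold rise and for Trpv3 a 2-fold fall. The groups did not overlap for 3 genes, with each knockdown value above each control value for Itpr1 and Trpm7 and below for Atp2a2. That is 33.3% of the 9, near the 34.9% of all tested genes.

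**Figure D1:**
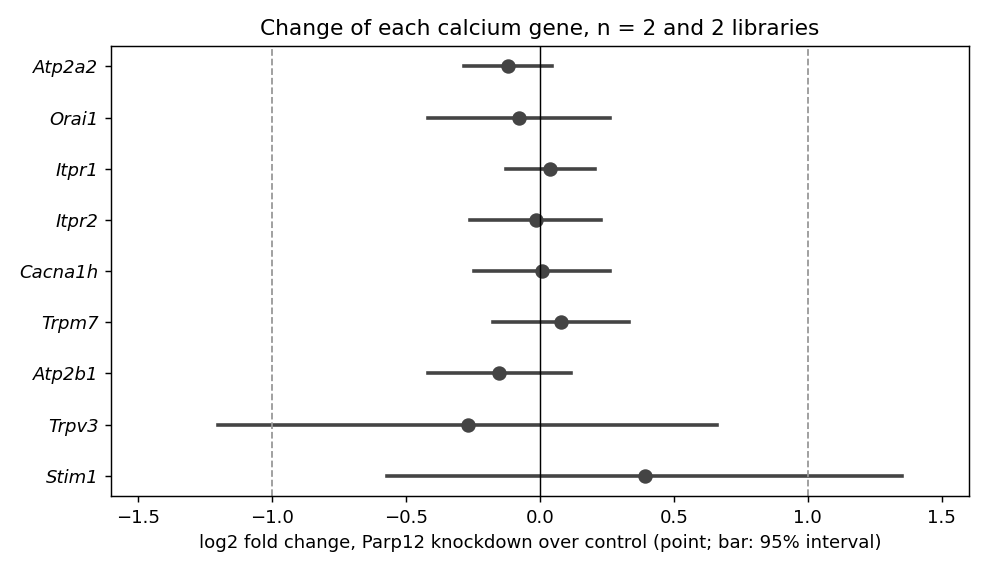
The horizontal axis is the log2 fold change of Parp12 knockdown over control oocytes, with 1 row per gene in order of level; points are edgeR estimates from 2 and 2 libraries, bars are 95% intervals, and dashed lines mark a 2-fold change. Each bar crosses 0, and only those of Trpv3 and Stim1 cross a dashed line.

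Itpr1 encodes the type 1 IP3 receptor, the main calcium release channel of the mammalian egg. It spans chr6:108213096-108551109 (plus strand, GENCODE M21, mm10) and was counted over 18319 exonic nucleotides. Its counts were 16774 and 15061 in control oocytes, and 15886 and 13884 in knockdown oocytes. These are 370.9 and 367.9 CPM in control oocytes and 373.1 and 387.8 CPM in knockdown oocytes. The controls differed by a ratio of 1.01 and both knockdowns lay above them, by little. The log2 fold change was 0.04 (SE 0.08), and its interval allowed a change of -8.32% to 15.2%, with an edgeR adjusted p of 0.966.

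Itpr2 encodes the type 2 receptor and lies on the same chromosome, at chr6:146108299-146502223 (minus strand, 14802 exonic nucleotides). It had 160.1 and 200.9 CPM in control oocytes and 176.6 and 180.0 CPM in knockdown oocytes, so both knockdown values fell between the controls. Its log2 fold change was -0.02 with an SE of 0.11 (95% interval -0.26 to 0.23). Its sign depended on single libraries, with 0.14 without control replicate 2 and -0.16 without control replicate 1.

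The makeup of the IP3 receptor family does not depend on how libraries are scaled. Per kb of exon, Itpr1 made up 64.1% and 58.1% of the receptor counts in control oocytes and 61.2% and 62.3% in knockdown oocytes. Means were 61.1% ± 4.24 (SD, n = 2) and 61.8% ± 0.816 (SD, n = 2), a difference smaller than the spread of the controls. Itpr2 held between 34.2% and 39.3%, and Itpr3, the type 3 receptor, between 1.66% and 2.97%. Itpr1 was above Itpr2 per kb in all 4 libraries, by a ratio of 1.48 to 1.87, or of 2.17 to 2.74 per kb of 1 coding transcript.

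Atp2a2 encodes SERCA2, the pump that refills the endoplasmic reticulum with calcium. The gene lies at chr5:122453513-122502225 (minus strand, 6081 exonic nucleotides). It had 21857 and 21375 counts in control oocytes and 20429 and 15964 in knockdown oocytes, which are 483.2 and 522.1 CPM against 479.8 and 445.9 CPM. The knockdown values lay below the controls, the nearest pair being 479.8 and 483.2 CPM. The log2 fold change was -0.12 with an SE of 0.08 (95% interval -0.28 to 0.04), and the adjusted p was 0.858 in edgeR and 0.398 in DESeq2. The lowest share of Atp2a2 among the SERCA counts per kb was 99.856%, in control replicate 1. Atp2a1 had between 0 and 18 counts, and Atp2a3 had 0 in all 4 libraries. The small membrane inhibitors of SERCA, Pln and Sln (picked after their values were seen), had 0 counts in all 4 libraries.

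Atp2b1 encodes PMCA1, which expels calcium across the plasma membrane. It is at chr10:98914406-99026143 (plus strand, 15218 exonic nucleotides). Its level was 140.8 and 125.2 CPM in control oocytes and 111.9 and 129.3 CPM in knockdown oocytes. The groups overlapped, with the lowest value in knockdown replicate 1 and the highest in control replicate 1. Knockdown over control, the log2 fold change was -0.15 with an SE of 0.12 (95% interval -0.42 to 0.12), and it was -0.04 without knockdown replicate 1 and -0.25 without knockdown replicate 2. Atp2b1 was the most abundant PMCA gene per kb, with 46.0% to 51.2% of the family. Atp2b4 held 24.3% to 32.4%, Atp2b3 17.3% to 28.3%, and Atp2b2 at most 1.09%. Per kb, Atp2a2 exceeded Atp2b1 by a ratio of 8.59 to 10.7 in the 4 libraries. With the length of 1 coding transcript in place of all exons, that ratio was 5.45 to 6.81 and the share of Atp2b1 in its family was 63.1% to 67.9%.

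Stim1 encodes the sensor of store calcium that opens ORAI channels when the store empties. It is at chr7:102267806-102437319 (plus strand, 10371 exonic nucleotides). It had 237 and 600 counts in control oocytes and 501 and 500 in knockdown oocytes, that is 5.24 and 14.7 CPM against 11.8 and 14.0 CPM. Control replicate 1 stood apart, and control replicate 2 and both knockdowns lay close together. The 2.80-fold gap between the controls was matched or exceeded by 2.59% of the 3202 tested genes within 2-fold of the Stim1 level. Its log2 fold change was 0.39 with an SE of 0.44 (95% interval -0.57 to 1.35). It was -0.19 without control replicate 1 and 1.27 without control replicate 2, so the direction rested on 1 control library. The interval excluded a 2-fold fall of Stim1 but not a 2-fold rise.

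Stim2, the paralogue that responds to smaller losses of store calcium, held most of the STIM counts in these libraries. It had 1992 and 2020 counts in control oocytes and 2203 and 2269 in knockdown oocytes, and made up 87.2% to 94.4% of the STIM counts per kb. With the length of 1 coding transcript in place of all annotated exons, its share was 73.6% to 87.4%. The share of Stim1 was 5.56% to 12.8% by all exons and 12.6% to 26.4% by that transcript. Stim2 exceeded Stim1 in every library on both scales. Its log2 fold change was 0.29 (SE 0.18), with an edgeR adjusted p of 0.847.

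Orai1 encodes the pore of the store-operated channel. It is at chr5:123015074-123030456 (plus strand), with 2295 exonic nucleotides. It had 65.9 and 71.1 CPM in control oocytes and 59.1 and 71.5 CPM in knockdown oocytes. Knockdown replicate 1 gave the lowest value and knockdown replicate 2 the highest, so the controls lay between them. The log2 fold change was -0.08 with an SE of 0.16 (95% interval -0.42 to 0.26), and it was -0.21 without knockdown replicate 2 and 0.06 without knockdown replicate 1. Orai1 made up 88.3% to 93.3% of the ORAI counts per kb, Orai3 6.64% to 11.7%, and Orai2 at most 0.348%. Orai3 had 369 and 317 counts in control oocytes and 167 and 236 in knockdown oocytes, a log2 fold change of -0.63 (SE 0.49) with an edgeR adjusted p of 0.898. Orai1 exceeded Stim1 per kb by a ratio of 21.9 to 23.1 in 3 libraries and of 56.8 in control replicate 1, the library with low Stim1. By the length of 1 coding transcript the ratio was 10.6 to 11.2 in those 3 libraries and 27.4 in control replicate 1. Of the Orai1 exons 7 nucleotides are shared with Gm2479 on the other strand, which had between 1620 and 2084 counts per library.

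**Figure D2:**
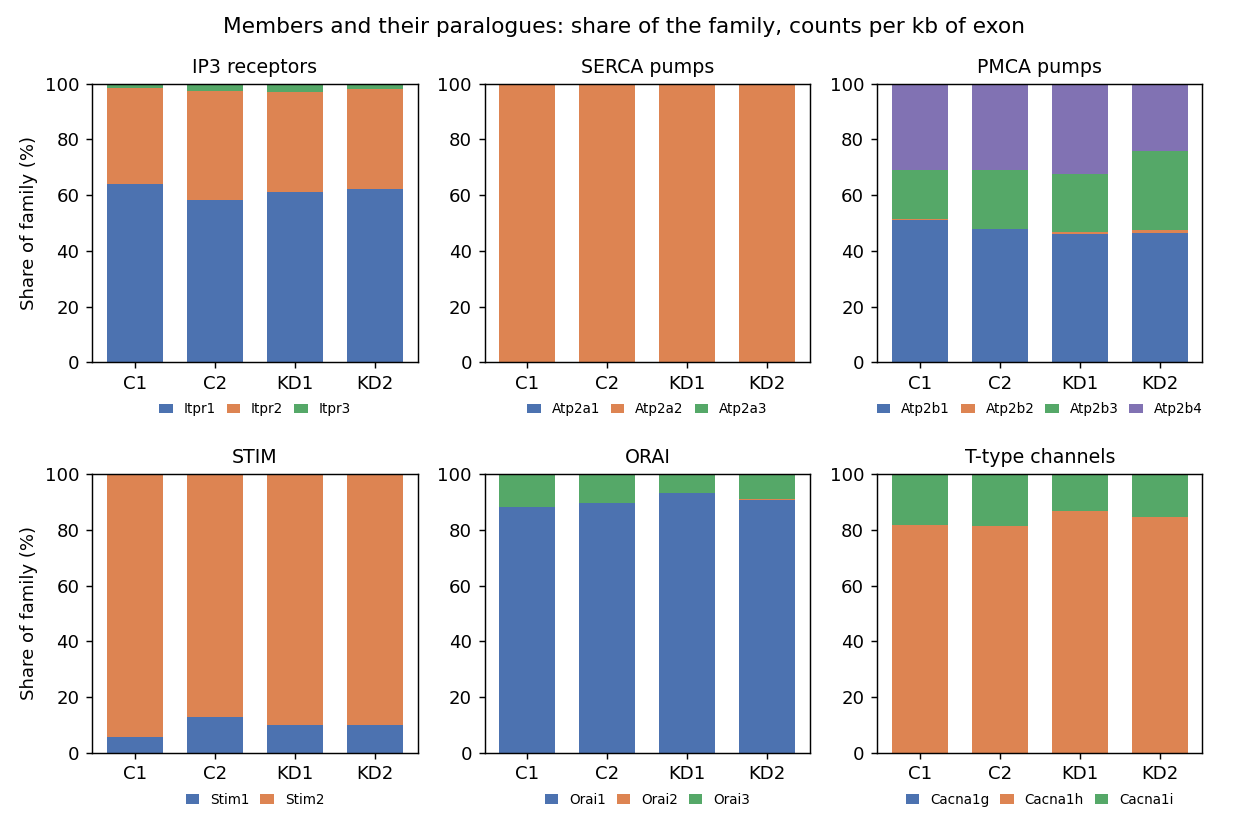
Each panel is a gene family and each bar a library (C1 and C2, control replicates; KD1 and KD2, Parp12 knockdown replicates); colours divide the bar by each gene's share of the family's counts per kb of exon, in percent. Itpr1 holds 58.1% to 64.1% of the IP3 receptors, Atp2a2 nearly all SERCA counts, Stim2 most STIM counts, Orai1 88.3% to 93.3% of ORAI and Cacna1h at least 81.2% of the T-type channels.

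Trpm7 encodes a channel for divalent cations fused to a kinase, one of the routes of calcium entry in eggs. It is at chr2:126791565-126876230 (minus strand, 11315 exonic nucleotides). It had 112.7 and 111.2 CPM in control oocytes and 114.4 and 122.9 CPM in knockdown oocytes. Both knockdowns lay above the controls, replicate 1 by less than replicate 2. Its log2 fold change was 0.08 with an SE of 0.12 (95% interval -0.17 to 0.33). Its relative Trpm6 held between 5.93% and 8.53% of the counts of the pair per kb.

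Trpv3 encodes a cation channel whose current is known to grow as the oocyte matures. It is at chr11:73267388-73300363 (plus strand, 5835 exonic nucleotides). It had 393 and 445 counts in control oocytes and 432 and 202 in knockdown oocytes, or 8.69 and 10.9 CPM against 10.1 and 5.64 CPM. Knockdown replicate 2 was low, and knockdown replicate 1 lay between the controls. The 1.80-fold gap between the knockdowns was matched or exceeded by 18.7% of the 3016 tested genes within 2-fold of its level. The log2 fold change was -0.27 with an SE of 0.43 (95% interval -1.20 to 0.66), and it was 0.06 without knockdown replicate 2 and -0.79 without knockdown replicate 1. Among the TRPV genes, Trpv3 (31.2% to 41.6% of the family per kb) and Trpv2 (29.3% to 54.5%, picked after its values were seen) had overlapping shares. By the length of 1 coding transcript the shares were 23.5% to 34.1% and 37.0% to 63.3%.

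Cacna1h encodes the pore of the T-type calcium channel CaV3.2, through which calcium enters growing and maturing oocytes. It is at chr17:25374285-25433783 (minus strand, 9763 exonic nucleotides). It had 113.6 and 119.8 CPM in control oocytes and 122.1 and 112.1 CPM in knockdown oocytes, and the controls lay between the knockdowns. Knockdown over control, the log2 fold change was 0.01 with an SE of 0.12 (95% interval -0.25 to 0.26). Cacna1h made up 81.2% to 87.0% of the T-type counts per kb. Cacna1i made up 13.0% to 18.7%, and Cacna1g had 0 or 1 count in a library. Cacna1i had 1153 and 1143 counts in control oocytes and 788 and 737 in knockdown oocytes. The groups did not overlap, as was so for Stim2, Orai3 and 34.9% of all tested genes. Its log2 fold change of -0.46 (SE 0.25) had an edgeR adjusted p of 0.835.

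Levels of the 9 genes spanned a 72.2-fold range per kb of exon over the 4 libraries. Atp2a2 was highest, at 79.4 ± 5.13 CPM per kb (SD, n = 4). Orai1 (29.1 ± 2.52), Itpr1 (20.5 ± 0.482), Itpr2 (12.1 ± 1.13) and Cacna1h (12.0 ± 0.492) followed, on the same scale. Trpm7 (10.2 ± 0.464), Atp2b1 (8.33 ± 0.784), Trpv3 (1.51 ± 0.397) and Stim1 (1.10 ± 0.414) had the lower levels. Itpr2 and Cacna1h overlapped and traded places in 2 of 4 libraries, and Trpv3 and Stim1 overlapped too. The ranges of the other neighbours did not overlap. Only Trpv3 and Stim1 were below the median of all tested genes, 3.28 CPM per kb. Atp2a2 ranked 580 and Orai1 2005 among the 15868 tested genes.

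The order in the middle depended on the length used. All annotated exons of Itpr1 span 18319 nucleotides and its longest coding transcript 9870, and for Stim1 the lengths are 10371 and 4085. Per kb of that transcript Atp2a2 stayed highest (107.6 ± 6.96 CPM per kb, SD, n = 4), followed by Itpr1 (38.0 ± 0.895) and Orai1 (35.7 ± 3.09). Atp2b1 (17.8 ± 1.67) then stood ahead of Trpm7, Itpr2 and Cacna1h (14.2 ± 0.585), and Trpv3 had the lowest mean. On this scale the ranges of Itpr1 and Orai1 overlapped, as did those of Atp2b1, Trpm7 and Itpr2. Itpr2 overlapped with Cacna1h, and Stim1 with Trpv3, Stim1 being the lower in control replicate 1. Which transcripts the oocytes use was not measured. The RNA was caught by its poly(A) tail, and the part of tail length in the levels, shares and ratios between genes was not tested.

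**Figure D3:**
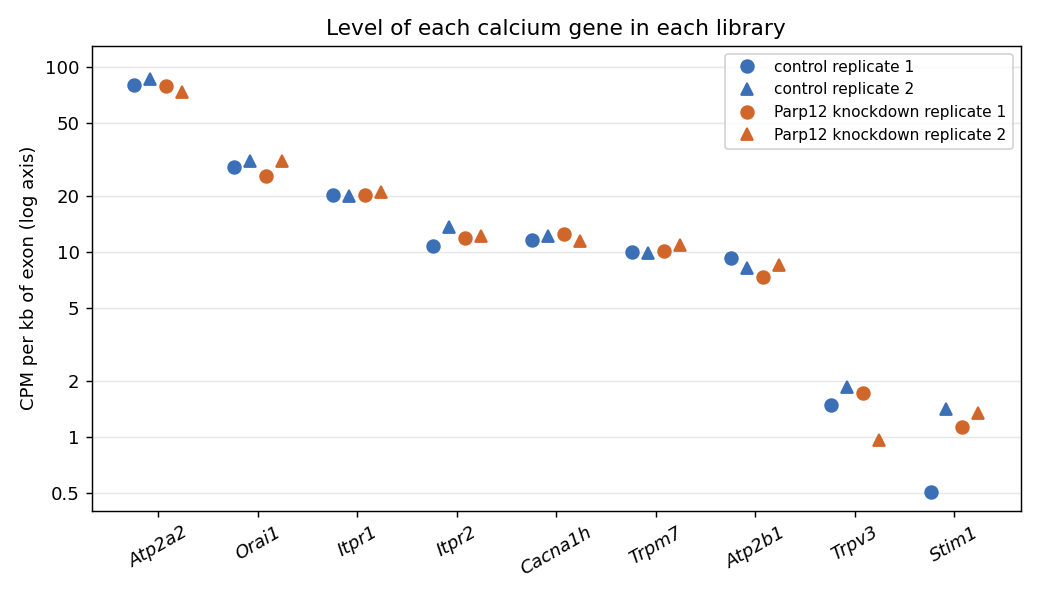
The vertical axis is CPM per kb of annotated exon on a log scale, and each gene has 4 points, 1 per library (circles replicate 1, triangles replicate 2, blue control, orange Parp12 knockdown). Points of a gene lie close together except for Stim1, where control replicate 1 is low, and Trpv3, where knockdown replicate 2 is low.

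Other genes of calcium handling were described by 8 lists that together hold 144 genes, the 9 included. Of these 118 were tested and 0 passed edgeR's threshold. At an unadjusted p under 0.05, 9 (7.63%) were counted, 8 higher and 1 lower, where 2.94% and 2.57% of all tested genes were higher and lower. The 8 were Hsp90b1, Hspa5, Pdia3, Ahcyl1, Ppp3r1, Camk1, Itpkc and Plch2, and the 1 was Saraf. Itpkc and Plch2 had 0 counts in each control library, against 63 and 32 and against 44 and 26 in knockdown oocytes. Camk1 had 11 and 0 counts in control oocytes and 95 and 62 in knockdown oocytes. Plch2 and Camk1 were picked after their values were seen. Itpkc, Plch2 and Camk1 passed the filter on low counts through the knockdown group, so counting them as higher is no support for a rise of the lists. DESeq2 called 3 of 118, or 2.54%, against 1.86% of all genes, and limma-voom called 0. The 3 include Itpkc, so that share is no support either. The groups did not overlap for 38.1% of the 118, against 34.9% of all tested genes. Itpkc, Plch2 and Camk1 are counted in the 38.1% too. The median log2 fold change was -0.0040.

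For store release genes (14 tested) the median of the log2 fold changes was -0.03. Ahcyl1, which encodes the IP3 receptor binding protein IRBIT, had the smallest p of the list, at 50.4 ± 7.23 CPM in control oocytes and 67.9 ± 0.806 CPM in knockdown oocytes (SD, n = 2), with an edgeR adjusted p of 0.835. Selenok was the most abundant per kb apart from the 9 genes, at 33.7 CPM per kb. The ryanodine receptors, the other family of store release channels, were picked after their values were seen. Ryr2 and Ryr3 had between 415 and 644 counts per library and Ryr1 at most 44. Phospholipase C and IP3 kinase genes (10 tested of 17) had a median of -0.03. Plce1 was the most abundant per kb, at 389.5 ± 40.2 and 389.3 ± 3.70 CPM. Itpkc, which phosphorylates IP3, was at 0 in each control library, against counts of 63 and 32 in knockdown oocytes, and adjusted p-values of 0.835 in edgeR and 0.0341 in DESeq2. Plcz1, the sperm enzyme, had 0 counts in all 4 libraries.

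Entry channel genes (22 tested of 28) had a median of -0.20 with 15 below 0 and 7 above, and 0 reached an unadjusted p under 0.05 by edgeR. Cacna2d1, an auxiliary subunit of voltage-gated channels, had the smallest p, with 20.6 ± 3.19 CPM in control oocytes and 13.3 ± 2.99 CPM in knockdown oocytes (SD, n = 2). Cacnb3, another auxiliary subunit, was the most abundant per kb beside the 9 genes and had a log2 fold change of -0.07. Store-operated entry genes (10 tested) had a median of 0.14. Saraf, an inhibitor of store-operated entry, led that list in level and in p. It had 14844 and 13297 counts in control oocytes and 11938 and 10249 in knockdown oocytes, or 326.5 ± 2.39 and 283.3 ± 4.14 CPM (SD, n = 2). Both knockdowns were below both controls, and the log2 fold change was -0.21 (SE 0.08), with adjusted p-values of 0.835 in edgeR and 0.0253 in DESeq2.

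Pumps and exchangers (13 tested of 18) had a median of 0.06. Atp2c1, the calcium and manganese pump of the Golgi, was the most abundant per kb after Atp2a2, with 422.6 ± 29.9 CPM in control oocytes and 450.5 ± 17.5 CPM in knockdown oocytes (SD, n = 2). The smallest p belonged to Atp2b2, with 36 and 0 counts against 66 and 90. The sodium-calcium exchanger genes Slc8a1 and Slc8a3, picked after their values were seen, had counts in only 1 library of each group, at most 52. Mitochondrial uptake genes (11 tested) had a median of 0.03. Mcub, a subunit that restrains the uniporter, was the most abundant, at 208.4 ± 14.8 and 213.8 ± 10.1 CPM. Micu3 had the smallest p, with 22 and 28 counts against 146 and 14.

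Genes for store buffers and chaperones (15 tested of 16) had a median of 0.06 with 10 above 0 and 5 below. Calr, encoding the store protein calreticulin, was the most abundant per kb, at 708.6 ± 52.5 CPM in control oocytes and 761.3 ± 11.9 CPM in knockdown oocytes (SD, n = 2), with a log2 fold change of 0.10 (SE 0.07). Hsp90b1, Hspa5 and Pdia3, chaperones of the endoplasmic reticulum of which Hspa5 and Pdia3 were picked after their values were seen, reached an unadjusted p under 0.05, with log2 fold changes of 0.31, 0.20 and 0.17. Hsp90b1 had the smallest p of all listed genes, with adjusted p-values of 0.835 in edgeR and 0.00124 in DESeq2. Genes for calmodulin and other calcium decoders (23 tested of 29) had a median of 0.11. Calm2 was the most abundant per kb, at 377.6 ± 23.8 and 357.1 ± 20.8 CPM. Ppp3r1, the regulatory subunit of calcineurin, had the smallest p, with 8570 and 8404 counts against 12115 and 7480. These are 189.5 and 205.3 CPM in control oocytes and 284.5 and 208.9 CPM in knockdown oocytes, knockdown replicate 1 being the high library. Camk2g, the calcium-dependent kinase that drives egg activation, was picked after its values were seen. Its level was 392.1 ± 61.6 and 374.8 ± 3.93 CPM, with a log2 fold change of -0.07 (SE 0.10).

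**Figure D4:**
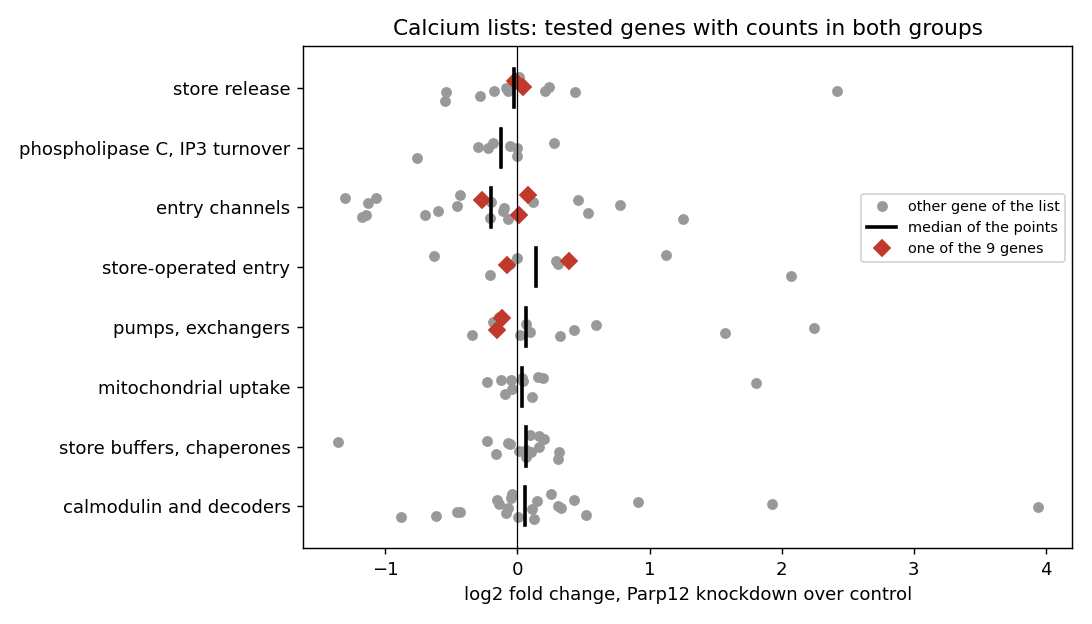
The horizontal axis is the edgeR log2 fold change of Parp12 knockdown over control, with 1 row per list; grey points are tested genes, red diamonds are members of the set of 9, and black bars are medians of the points drawn. The 3 tested genes at 0 in all libraries of a group are left out, and the 115 points lie between -1.36 and 3.94, the diamonds near 0.

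Likeness of pattern was measured as the root mean square difference of log2 CPM, each gene centred on its own mean, over the 4 libraries, between each gene and the 70 other listed genes of at least 10 CPM (Trpv3, below that level, was left out). Itpr1 and Trpm7 were each other's nearest gene (0.027), where the median difference from Itpr1 was 0.14. Genes that vary little lie near each other by this measure whatever their pattern. Itpr1 ran only from 367.9 to 387.8 CPM and Trpm7 from 111.2 to 122.9 CPM. Cacna1h was nearest to Micu2 (0.023), Orai1 to Selenok (0.029), Atp2a2 to Nucb1 (0.046), Atp2b1 to Calm2 (0.047) and Itpr2 to Letm1 (0.056). The nearest to Stim1, Pdia4, was at 0.39, so none of the 70 genes compared lay close to Stim1 over the 4 libraries. With 4 libraries these are descriptions only.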

How the data were processed

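The authors deposited a table of raw read counts per gene, with exon coordinates, strand and summed exon length as other values, in featureCounts layout per the file headers. Tools listed in the submitters' processing notes, with no roles given, are STAR 2.7.5b, Trim Galore 0.6.4, DESeq2 1.28.1 and featureCounts 2.0.0. The build listed is mm10. Strand use and the treatment of multiply aligned reads in counting are not given there. Groups and replicate numbers came from sample titles. Nothing says that replicates were separate animals, so p-values measure the spread between these libraries, which may be technical. Replicate libraries differed beyond counting noise (chi-square of 39.6 and 33.9 per degree of freedom).

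Counts were tested with edgeR 4.0.16 in R 4.3.3: filterByExpr (minimum count 10, total 15), TMM, estimateDisp, glmQLFit (robust, legacy off) and two-sided glmQLFTest on group alone, adjusted by Benjamini-Hochberg at 0.05. Intervals are at 95%. With 2 libraries a group, an exact permutation test cannot go below 0.333, so none is given. CPM uses library totals, and intervals and limits cover no PCR effects. DESeq2 1.42.0 and limma-voom (limma 3.58.1) were alternatives, with other scalings, filters, a replicate block, the legacy fit and each library left out. Tests were checked on simulated counts with planted changes larger than those estimated for the 9 genes. That check does not cover changes of their size. The members, lists and alternatives were chosen with earlier results of these data known. Named genes are Parp12, the 9, their paralogues by level, list genes past the threshold, per list the gene outside the 9 with the smallest p and the one most abundant per kb, and the gene most like each member of at least 10 CPM. Some further genes, Camk1 and Plch2 among them, were named after their values were seen.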

Additional observations from a re-analysis of the deposited data

How the results depend on the processing

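For the 9 genes, 0 were called under all 13 alternatives, and the adjusted p ran from 0.398 upward. Of 117 values of single genes 110 kept their sign. Those that turned did so only when a library was left out, where log2 fold changes ranged from -0.16 to 0.14 for Itpr2, -0.79 to 0.0581 for Trpv3, -0.0563 to 0.064 for Cacna1h, -0.19 to 1.27 for Stim1 and -0.21 to 0.0639 for Orai1. The number of all genes called was 1, and it was 1 to 2 without a library, 8 when both libraries of a group had to reach 1 CPM, 0 with limma-voom and 305 with DESeq2, which also called 3 genes of the calcium lists (Hsp90b1, Saraf and Itpkc) where edgeR called 0. Itpr1's mean share of the IP3 receptor counts over the 4 libraries was 61.4% per kb, 66.8% without a length correction and 70.2% with the length of 1 transcript, a length chosen after seeing the data, as were its use for ratios between genes and the legacy fit. Of the 36 pairs among the 9 genes, 28 kept their order without a length correction and 29 with that transcript length. Same-numbered libraries did not deviate together (r = 0.0080 over 15868 genes). With 1 difference per group, this correlation cannot show whether they were collected or prepared as pairs, and the titles do not say. With the replicate block, edgeR called 1 gene in all and 0 of the 9. Stim1 and Trpv3, with 202 to 600 counts per library, had the widest intervals of the 9 genes.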
